A study of Mus musculus with 10 samples.

Results

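The genes described here are 9 markers of blood and clot: the globin genes Hba-a1, Hbb-b1 and Hbb-b2, the red cell genes Alas2 and Slc4a1, and Ppbp, Pf4, Gp9 and Itgb2l, which were listed as platelet genes. They were taken by name as a measure of blood and thrombus in each sample, not by a cut on their levels. Earlier results of these data were known when they were chosen. For each gene, every probe set annotated with that gene symbol alone was followed. Of the 9 genes, 8 had such a probe set, 13 probe sets in all, among 18193 genes on the array. Hbb-b1 had none.

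RNA came from 10 samples of male Swiss nu/nu (nude) mice, each hybridized to 1 Affymetrix mouse genome array. The recipient mice were described as 6 weeks old, and the age at sampling was not given. PSI-F grafts held rat (Wistar) islets in a scaffold of clotted plasma, also of Wistar rats, together with cultured skin fibroblasts of nu/nu mice. PSI grafts held the same islets and plasma without fibroblasts. Both kinds were placed under the skin of mice made diabetic with streptozotocin and were removed on days 1, 3, 7 and 10, which gave 8 graft arrays. The 2 others were subcutaneous biopsies of mice without a graft, 1 from the Diabetic group, taken 7 to 10 days after streptozotocin, and 1 from the healthy Control group. RNA was made from a part of each graft, and the RNA of best quality was chosen for hybridization. The sources used here do not say how many mice gave the RNA of an array. All probes are for mouse sequence, so any RNA of the rat islets or rat plasma counts only as far as it pairs with them.

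Mature red cells of mammals have no nucleus, but young ones (reticulocytes) still carry messenger RNA, nearly all of it for alpha-globin, beta-globin and a few proteins of heme and membrane. Platelets also lack a nucleus and carry messenger RNA from the megakaryocyte, including that of the granule chemokines Ppbp and Pf4. These transcripts reach any tissue that holds blood, by its vessels, by bleeding or by a clot. In a whole graft, fewer blood cells and less RNA per cell cannot be told apart.

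Adult mice make haemoglobin from a pair of nearly identical alpha-globin genes and from a pair of beta-globin genes, which are named Hbb-bs and Hbb-bt in some strains and Hbb-b1 and Hbb-b2 in others. The sources used here do not say which pair these mice carry. RefSeq promoter windows (GRCm38.p6), 250 bases before and 50 after the start, were found for 6 of the 9 genes and not for Hbb-b1, Hbb-b2 and Slc4a1. The windows of Hba-a1 and its neighbour Hba-a2, whose starts lie 12820 bases apart on chromosome 11, share an unbroken run of 297 of 300 bases. The last 100 bases before the start are shown for the genes with the clearest signal and for a globin of each kind, with Hbb-bt standing for the beta-globin genes. Capitals mark GATAA, the core of the site of GATA factors, which act in red cells and megakaryocytes, and CACCC, a site of KLF factors. They also mark the CCAAT box, the TATAA box and GGAAGT, a site of ETS factors. Each was searched on both strands, and the long capital runs of Alas2 and Hbb-bt are adjacent matches.
Hba-a1 (chr11:32283572-32283671, plus strand): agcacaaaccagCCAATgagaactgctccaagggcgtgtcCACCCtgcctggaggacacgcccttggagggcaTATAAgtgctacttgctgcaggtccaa
Hbb-bt (chr7:103813924-103814023, minus strand): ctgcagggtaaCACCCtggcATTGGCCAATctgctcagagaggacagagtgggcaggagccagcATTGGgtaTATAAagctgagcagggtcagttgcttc
Alas2 (chrX:150547317-150547416, plus strand): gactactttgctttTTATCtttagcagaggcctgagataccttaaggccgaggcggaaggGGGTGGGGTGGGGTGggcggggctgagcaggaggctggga
Ppbp (chr5:90768418-90768517, plus strand): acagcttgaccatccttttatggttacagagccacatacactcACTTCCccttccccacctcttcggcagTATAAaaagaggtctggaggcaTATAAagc
Pf4 (chr5:90772335-90772434, plus strand): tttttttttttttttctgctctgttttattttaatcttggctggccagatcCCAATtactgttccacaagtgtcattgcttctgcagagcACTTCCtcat
In the 250 bases before the start, GATAA was present in 3 of the 6 genes, Hba-a1, Alas2 and Gp9, and in 22.6% of all 32851 RefSeq windows. GGAAGT was present in 4 of the 6, Ppbp, Pf4, Gp9 and Itgb2l, and in 19.7% of all windows. CACCC was present in Hba-a1, Alas2 and Gp9 and in 52.0% of all windows, CCAAT in Hba-a1, Pf4 and Gp9 and in 33.8%, and TATAA in Hba-a1, Alas2 and Ppbp and in 22.8%. Ppbp and Pf4 are neighbours on chromosome 5, with starts 3917 bases apart. A match is a description of the letters and no evidence of binding.

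Levels are the authors' deposited log2 values, so that a difference of 1 stands for 2-fold. Array medians ran between 2.82 and 2.94, and levels near or below them were close to background. Of the 8 measured genes, 4 (Hbb-b2, Alas2, Ppbp and Pf4) reached a level of 5 on at least 1 array, and Slc4a1 came just below with 4.97. With 1 array per condition no spread within a condition is known, so the order of the arrays is a description.

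Alas2, Hbb-b2 and Slc4a1 were highest in the PSI-F graft of day 7. Alas2 encodes the erythroid form of the first enzyme of heme synthesis. Its level was 3.20, 6.31, 8.19 and 6.22 in PSI-F grafts of days 1, 3, 7 and 10, against 5.04, 5.83, 6.46 and 5.0 in PSI grafts of the same days. The biopsies had 5.11 in Diabetic and 2.83 in Control. The level thus climbed to day 7 in both kinds of graft and was lower on day 10, and the PSI-F graft of day 1 lay near the Control biopsy.

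Hbb-b2, an adult beta-globin gene, also peaked on day 7 in both kinds of graft. On its brighter probe set the level was 2.04, 4.75, 7.09 and 3.95 in PSI-F grafts and 2.88, 3.97, 4.91 and 3.01 in PSI grafts of days 1, 3, 7 and 10. Diabetic had 3.57 and Control 1.80. The name of this probe set ends in _x_at, the mark of probes that can also pair with related transcripts, so its signal is not tied to Hbb-b2 alone. The second probe set of Hbb-b2 stayed between 1.93 and 2.62 on the 10 arrays and showed no such course.

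Slc4a1 encodes band 3, the anion exchanger of the red cell membrane. Its level was 2.09, 3.11, 4.97 and 3.99 in PSI-F grafts and 3.03, 3.15, 3.73 and 3.64 in PSI grafts of days 1, 3, 7 and 10, with 3.33 in Diabetic and 3.98 in Control. The PSI-F graft of day 7 was again highest and that of day 1 lowest, but Control was not low as it was for Alas2 and Hbb-b2. Its second probe set had its highest values in 2 samples, 4.17 in the PSI-F graft of day 7 and 3.61 in Control, against 1.60 to 2.51 on the other arrays. The third stayed between 0.81 and 1.31.

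Hba-a1, an alpha-globin gene, was between 0.89 and 1.23 on all 10 arrays with its own probe set, below every array median, and no course can be read from it.

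**Figure D1:**
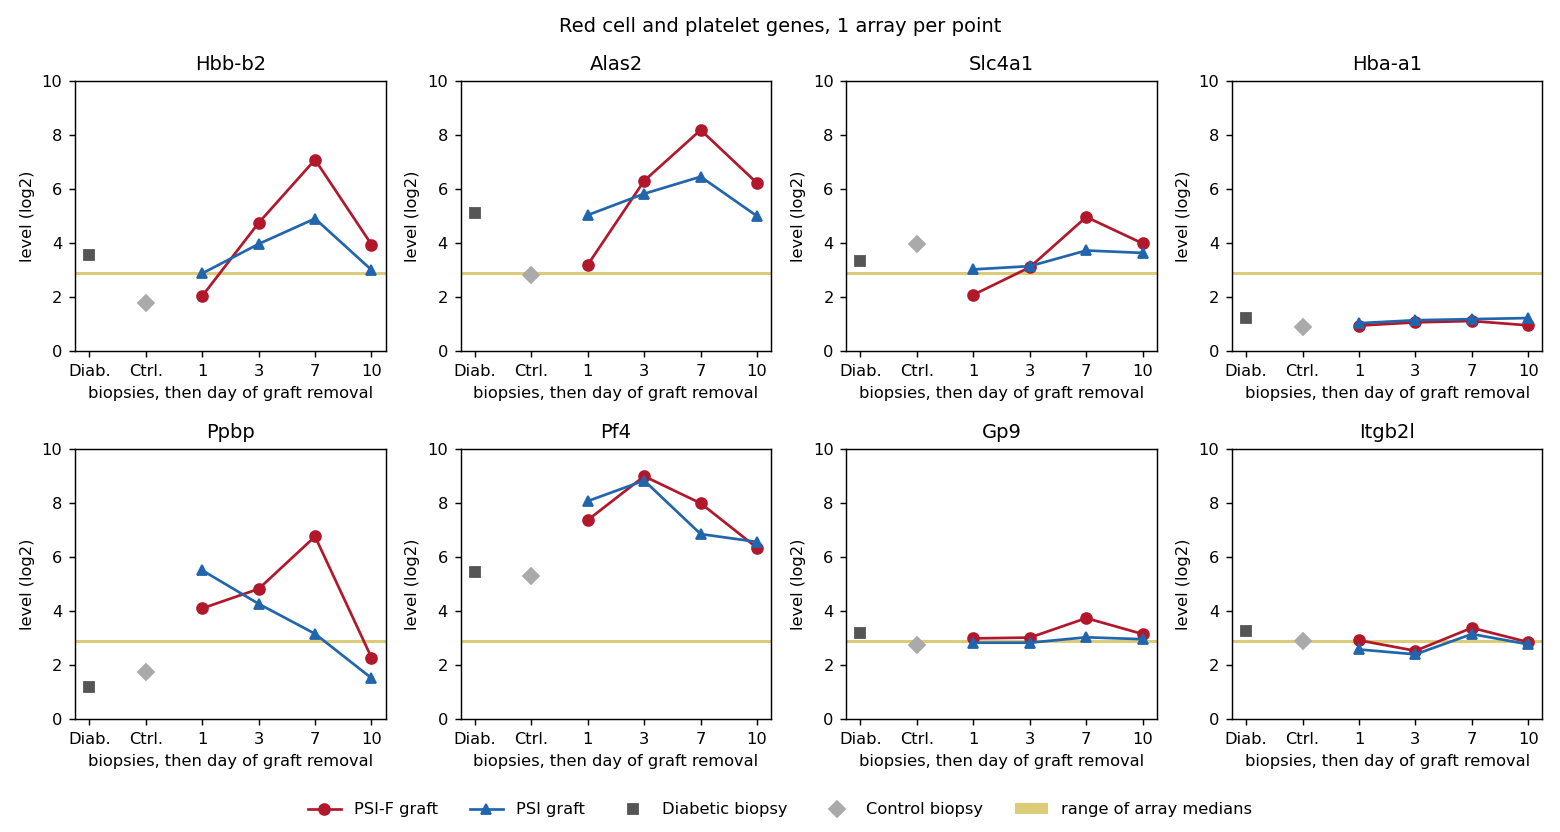
Level (log2, vertical axes) of the 8 measured genes in the Diabetic and Control biopsies and in PSI-F (circles) and PSI (triangles) grafts by day of removal, 1 array per point, each gene on its brightest probe set. Alas2 reached 8.19, Hbb-b2 7.09 and Ppbp 6.76 in the PSI-F graft of day 7, while Pf4 peaked on day 3 and Hba-a1 stayed below the range of array medians (band).

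The globin signal of these samples was carried by 4 probe sets that are listed with several globin genes and belong to no single one. The probe set listed with Hbb-b1, Hbb-b2, Hbb-bs and Hbb-bt had levels of 9.66, 11.94, 12.38 and 11.78 in PSI-F grafts and 11.35, 11.82, 11.93 and 11.21 in PSI grafts of days 1, 3, 7 and 10. Diabetic had 10.99 and Control 8.90. The 3 probe sets listed with Hba-a1 and Hba-a2 ran alike. The most variable of them had 8.37, 11.19, 12.02 and 11.10 in PSI-F grafts, 10.28, 11.02, 11.13 and 10.14 in PSI grafts, 10.14 in Diabetic and 7.64 in Control. All 4 probe sets were thus lowest in Control, next lowest in the PSI-F graft of day 1 and highest in the PSI-F graft of day 7.

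The gap between the kinds of graft passed 2-fold on day 1 only. PSI-F minus PSI was between -1.91 and -1.27 on day 1 over the 4 probe sets, between -0.03 and 0.16 on day 3, between 0.44 and 0.90 on day 7 and between 0.53 and 0.97 on day 10. On the day 7 arrays 99.72 to 99.99% of probe sets lay below these 4, and the part of so high a signal in the size of their differences was not tested. The Diabetic biopsy exceeded the Control biopsy by 1.73 to 2.50 on these probe sets and by 2.27 for Alas2, with 1 array each.

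**Figure D2:**
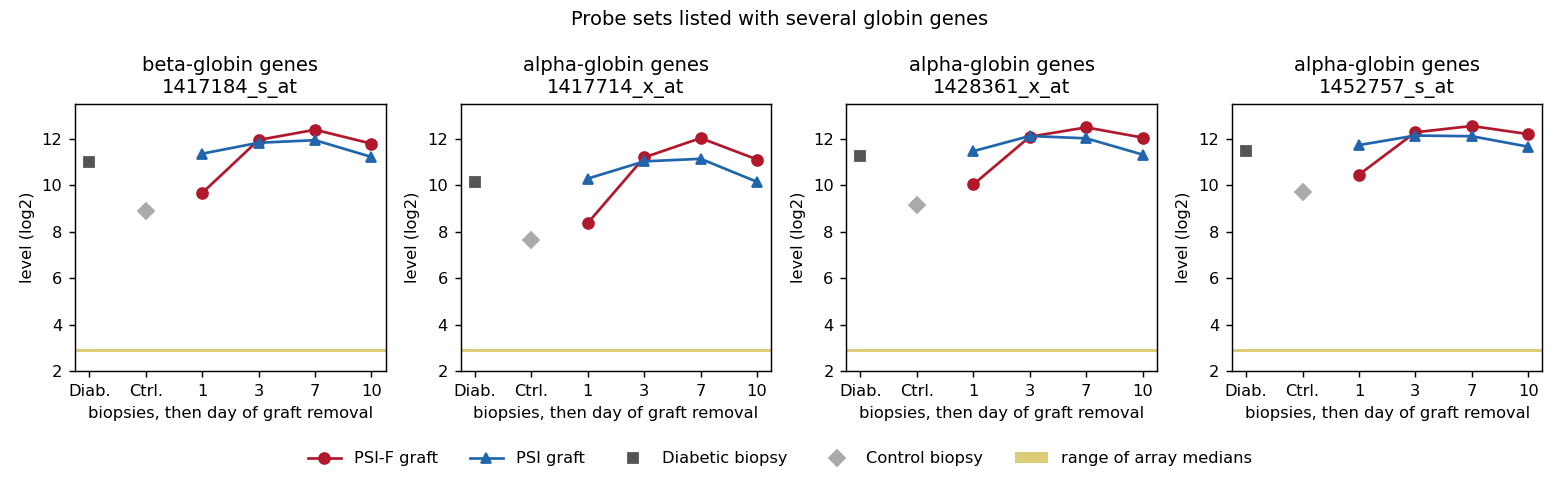
Level (log2, vertical axes) of the 4 probe sets listed with several globin genes in the Diabetic and Control biopsies and in PSI-F (circles) and PSI (triangles) grafts by day of removal, 1 array per point. In each panel Control is lowest, the PSI-F graft of day 1 is next and the PSI-F graft of day 7 is highest, at 12.02 to 12.54.

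Pf4 in both kinds of graft and Ppbp in PSI grafts took another course than Alas2 and Hbb-b2. Ppbp encodes pro-platelet basic protein, a chemokine precursor of platelet alpha granules. Its level was 4.1, 4.82, 6.76 and 2.28 in PSI-F grafts of days 1, 3, 7 and 10, and 5.51, 4.27, 3.16 and 1.52 in PSI grafts. It was 1.20 in Diabetic and 1.74 in Control, both below the array medians. In PSI grafts Ppbp was thus highest on day 1 and lower at each later day, while in PSI-F grafts it was highest on day 7 and close to background on day 10.

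Pf4 encodes platelet factor 4, another chemokine of alpha granules, which macrophages also express. Its level was 7.37, 8.99, 7.99 and 6.34 in PSI-F grafts and 8.07, 8.83, 6.85 and 6.56 in PSI grafts of days 1, 3, 7 and 10. It was 5.46 in Diabetic and 5.28 in Control. All 8 grafts lay above both biopsies, with a peak on day 3 in both kinds, and Pf4 was the only measured gene whose highest graft was of day 3.

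Gp9 encodes a subunit of the platelet receptor for von Willebrand factor. It was 2.99, 3.02, 3.74 and 3.15 in PSI-F grafts and 2.83, 2.83, 3.03 and 2.96 in PSI grafts, with 3.20 in Diabetic and 2.74 in Control. The PSI-F graft of day 7 was highest and Diabetic next, and all levels were close to background.

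Itgb2l encodes a relative of the beta-2 integrin chain known as pactolus, which is a gene of mouse neutrophils rather than of platelets. Its brightest probe set was between 2.53 and 3.38 in PSI-F grafts and between 2.40 and 3.15 in PSI grafts, with 3.28 in Diabetic and 2.91 in Control. The other probe sets of the gene stayed between 0.91 and 1.93. Itgb2l was close to background on all 10 arrays.

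When PSI-F was set against PSI of the same day, 5 of the 8 measured genes lay lower in PSI-F on day 1 and higher on day 7, namely Hbb-b2, Alas2, Slc4a1, Ppbp and Pf4. Gp9 (0.16 and 0.71) and Itgb2l (0.34 and 0.23) were above 0 on both days and Hba-a1 (-0.09 and -0.07) below, all with levels close to background. On day 1, 2 of the 8 measured genes, Alas2 (difference -1.83) and Ppbp (-1.40), lay 2-fold or more lower in PSI-F grafts and 0 were that much higher, against 0.819% and 0.313% of all 18193 genes. The median of the 8 was -0.77 and that of all genes -0.02. Hbb-b2 differed by -0.84, Slc4a1 by -0.94 and Pf4 by -0.70. The PSI-F level of Alas2 on day 1, 3.20, lay near the median of its array (2.92). Those of Hbb-b2 (2.04) and Slc4a1 (2.09) lay below it, so the sizes of these 3 differences are uncertain.

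On day 3 no gene was 2-fold apart in either direction, where 0.989% of all genes were that much higher and 1.87% lower in PSI-F. The differences ran between -0.08 for Hba-a1 and 0.78 for Hbb-b2.

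On day 7, 5 of the 8 lay 2-fold or more higher in PSI-F and 0 that much lower, against 0.956% and 0.824% of all genes. Ppbp differed by 3.60, Hbb-b2 by 2.18, Alas2 by 1.73, Slc4a1 by 1.24 and Pf4 by 1.15. The PSI level of Ppbp, 3.16, lay near the median of its array (2.91), so the size of its difference is uncertain. The median of the 8 was 1.19 and that of all genes -0.06. On the mean of its 2 probe sets Hbb-b2 differed by 0.78, since the second carried no signal.

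On day 10, 1 of the 8, Alas2 at 1.22, passed 2-fold upward in PSI-F and 0 passed downward, against 0.385% and 0.346% of all genes. Hbb-b2 came next with 0.94 and Ppbp with 0.76, while Pf4 was at -0.22. With 1 array per condition none of these differences has a replicate check. The genes were measured on the same arrays and do not replicate each other.

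**Figure D3:**
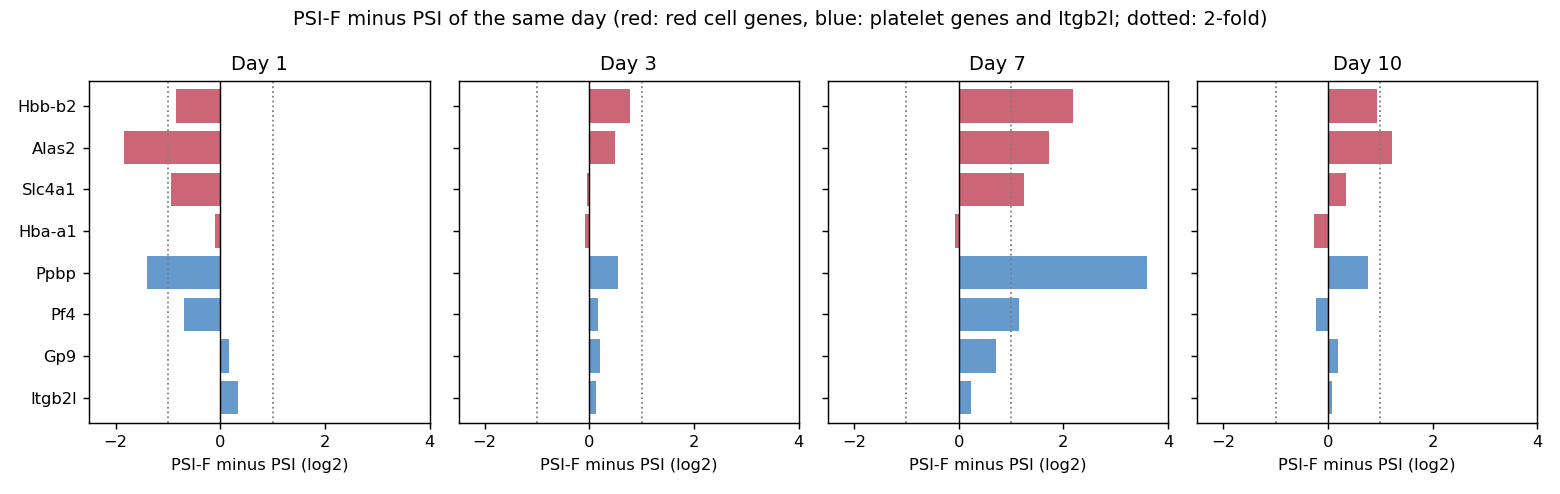
PSI-F minus PSI of the same day (log2, horizontal axes) for the 8 measured genes, 1 panel per day and 1 array per condition, with dotted lines at 2-fold. Alas2 (-1.83) and Ppbp (-1.40) pass the lower line on day 1, and Ppbp (3.60), Hbb-b2 (2.18), Alas2, Slc4a1 and Pf4 pass the upper line on day 7.

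Over all days together, no gene differed between PSI-F and PSI grafts beyond the spread of this difference from day to day. In limma with day as a block, 0 of the 8 genes passed an adjusted p (Benjamini-Hochberg over 45037 probe sets) under 0.05, where 0% of all probe sets did and 2749 had an unadjusted p under that value. Gp9, at 3.23 ± 0.35 in PSI-F and 2.91 ± 0.10 in PSI grafts (SD, n = 4 each), was the 1 gene with an unadjusted p under 0.05, and its adjusted p in limma was 0.751. Gp9 was higher in PSI-F on 4 of 4 days, by 0.16, 0.20, 0.71 and 0.19 on days 1, 3, 7 and 10. All its levels were close to background, where differences are less reliable. Ppbp averaged 4.49 ± 1.85 in PSI-F and 3.62 ± 1.69 in PSI grafts (SD, n = 4 each), with an adjusted p of 0.771 in limma. For Alas2 the mean was 5.98 ± 2.06 in PSI-F and 5.58 ± 0.70 in PSI grafts (SD, n = 4 each), with an adjusted p of 0.845 in limma. These mean differences rested on single days. Without an array of day 7, which takes its pair out of the fit, the difference was -0.03 for Ppbp and -0.04 for Alas2, and without an array of day 1 it was 1.64 and 1.15, against 0.88 and 0.40 over all days. PSI-F grafts varied more from day to day than PSI grafts in Alas2, Hbb-b2 (SD 2.09 against 0.95) and Slc4a1 (SD 1.23 against 0.35).

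Between grafts of days 7 and 10 and those of days 1 and 3, again 0 of the 8 genes passed in limma, against 0.904% of probe sets. On its brightest probe set Slc4a1 averaged 4.08 ± 0.61 on days 7 and 10 and 2.85 ± 0.50 on days 1 and 3 (SD, n = 4 each). The ranges were 3.64 to 4.97 and 2.09 to 3.15, with an adjusted p of 0.109 in limma. On its second probe set the ranges overlapped (2.37 to 4.17 against 1.60 to 2.39), with an adjusted p of 0.399 in limma. The third probe set differed by -0.03. Pf4 averaged 6.94 ± 0.74 on days 7 and 10 and 8.31 ± 0.75 on days 1 and 3 (SD, n = 4 each), with groups that overlapped and an adjusted p of 0.16 in limma. Itgb2l was the third gene with an unadjusted p under 0.05 and had an adjusted p of 0.24 in limma. Of all 45037 probe sets, 7059 had an unadjusted p under 0.05 in this comparison. In the same comparison, 12 of 24 control probe sets for the poly-A RNA added to samples before labelling were brighter on all 4 arrays of days 7 and 10 than on any other array, with mean differences of up to 2.55. Time and this difference between arrays cannot be told apart.

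Of the 8 genes, 0 passed in limma between the 8 grafts and the 2 biopsies, against 2.16% of probe sets. Pf4 came closest, at 7.63 ± 1.01 in grafts (SD, n = 8) and 5.37 ± 0.13 in biopsies (SD, n = 2), a difference of 2.26 ± 0.64 (SE) with an adjusted p of 0.095 in limma. Ppbp, at 4.05 ± 1.71 in grafts (SD, n = 8) and 1.47 ± 0.38 in biopsies (SD, n = 2), differed by 2.59 ± 1.08 (SE) with an adjusted p of 0.238 in limma. The beta-globin probe set listed with 4 genes averaged 11.51 ± 0.83 in grafts and 9.94 ± 1.48 in biopsies (SD), with an adjusted p of 0.223 in limma.

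To leave out the arrays that the poly-A controls set apart, a fit on the other 6 arrays, grafts of days 1 and 3 and biopsies, was added after the data were seen. In it Ppbp and Pf4 were higher in grafts, 2 of the 8 genes, against 1.97% of probe sets. Ppbp averaged 4.68 ± 0.63 in grafts of days 1 and 3 (SD, n = 4) and 1.47 ± 0.38 in biopsies (SD, n = 2), a difference of 3.21 ± 0.40 (SE) with an adjusted p of 0.0131 in limma. Pf4 averaged 8.31 ± 0.75 in these grafts (SD, n = 4) and 5.37 ± 0.13 in biopsies (SD, n = 2), a difference of 2.95 ± 0.44 (SE) with an adjusted p of 0.0255 in limma. Alas2 and Hbb-b2 did not pass, with adjusted p of 0.634 and 0.73 in limma, and for both the Diabetic biopsy lay above the PSI-F graft of day 1. Grafts and biopsies differ in tissue and not by transplantation alone, and the 2 biopsies put 1 Diabetic and 1 Control array together. Days stand in for replicates in all these fits, and nothing in the labels says that arrays of 1 kind are replicate mice of 1 condition.

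The red cell genes and the platelet genes were followed as pairs over the 10 arrays, 10 pairs in all. The pairs were chosen with earlier results of these data known, which their p-values do not take into account. Hbb-b2 and Alas2 ran most closely together, with Pearson r = 0.96 and Spearman rho = 0.98 (permutation test, two-sided, adjusted p = 0.0002 for both). Without the PSI-F graft of day 7 and the Control biopsy r was 0.94, and over the 6 arrays of days 0, 1 and 3 it was 0.97. Ppbp and Pf4 had r = 0.82 and rho = 0.83 (permutation test, adjusted p = 0.0179 and 0.0167), with r = 0.85 without the PSI-F graft of day 7 and the Diabetic biopsy and 0.90 over the arrays of days 0, 1 and 3.

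Of the 10 pairs, 7 did not pass the threshold. The 1 pair of a red cell gene with a platelet gene, Hbb-b2 and Ppbp, had r = 0.55 and rho = 0.42 (permutation test, adjusted p = 0.153 and 0.335), and r fell to -0.01 without the PSI-F graft of day 7 and Control, so that it rested on those arrays. Of pairs within the red cell genes, Hbb-b2 and Slc4a1 had r = 0.62 and rho = 0.38 (permutation test, adjusted p = 0.153 and 0.344). Ppbp had r = 0.39 with Gp9, -0.11 with Itgb2l and 0.54 with the endothelial gene Pecam1, all with an adjusted p above the threshold, as had Hba-a1 with Hbb-b2 (r = 0.43) and Itgb2l with the neutrophil granule gene Ngp (r = 0.57). Arrays of 1 kind of graft share their makeup and are not independent draws, which these p-values do not take into account.

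Pf4 followed Mrc1, the mannose receptor gene of tissue macrophages, with r = 0.93 and rho = 0.95 (permutation test, adjusted p = 0.0012 and 0.0006). Without the PSI-F graft of day 3 and Control r was 0.88, and over the arrays of days 0, 1 and 3 it was 0.98. Mrc1 had 7.00, 8.90, 7.62 and 6.97 in PSI-F grafts and 7.56, 8.53, 7.48 and 7.42 in PSI grafts of days 1, 3, 7 and 10, with 5.87 in Diabetic and 5.63 in Control. The median of 10 macrophage markers was 6.91, 7.90, 7.58 and 6.78 in PSI-F grafts and 6.44, 7.65, 7.22 and 6.92 in PSI grafts, against 5.54 in Diabetic and 4.62 in Control. The part of macrophages in the Pf4 signal was not tested.

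**Figure D4:**
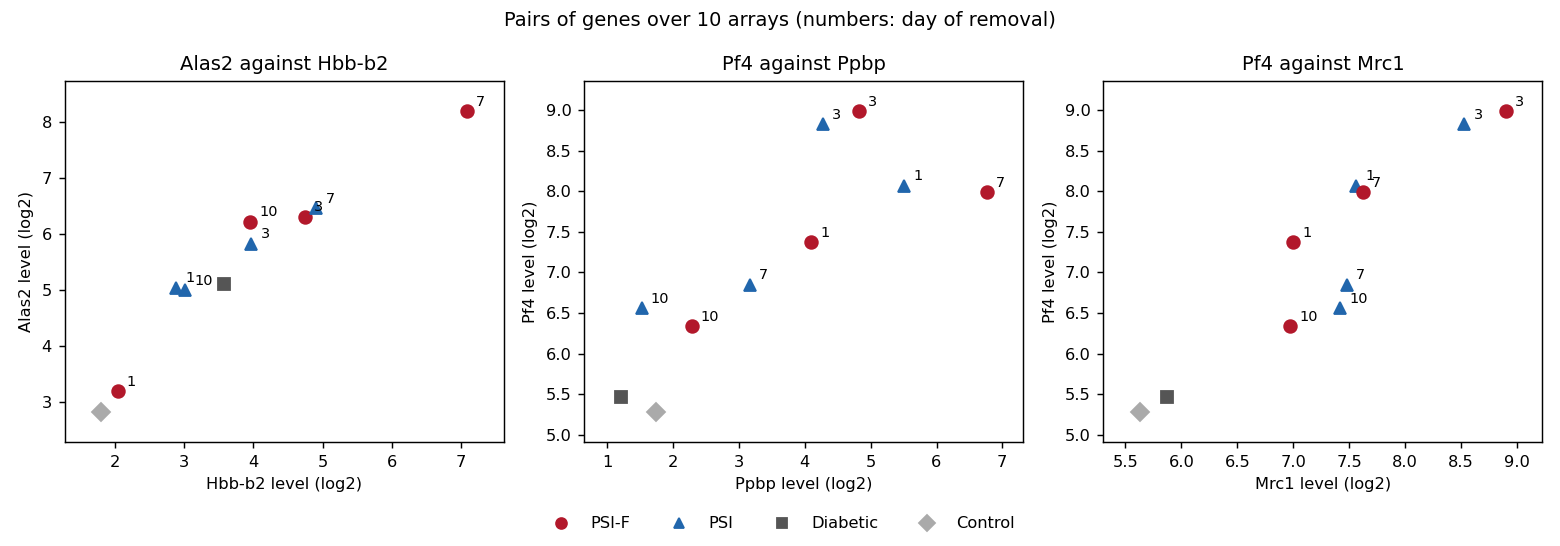
Levels (log2, both axes) of Alas2 against Hbb-b2, of Pf4 against Ppbp and of Pf4 against Mrc1 on the 10 arrays, with the day of removal beside each graft. The first pair lies along a line (r = 0.96), with the PSI-F graft of day 7 at the top and Control at the bottom, and Pf4 rises with Mrc1 (r = 0.93), with both day 3 grafts at the top.

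Among 2034 genes with an SD of at least 0.5 and a level of 5 or more on some array, those most like Hbb-b2 over the 10 arrays were Alas2 (r = 0.961), Tent5c (0.952), Clip3 (0.935), Myh10 (0.929) and Mecom (0.874). Tent5c had 3.59, 5.90, 7.53 and 5.51 in PSI-F grafts and 5.03, 4.62, 6.01 and 4.96 in PSI grafts, and 4.68 in Diabetic and 3.28 in Control. The genes most like Ppbp were Krt18 (0.911), Clu (0.898), Hk3 (0.879), Arrb2 (0.870) and Ptpn6 (0.867). Those most like Pf4 were Tfec (0.977), Vsir (0.977), Sod3 (0.970), Wfdc17 (0.969) and Ninj1 (0.961). Those most like Itgb2l were Kcnab1 (0.856), Smr2 (0.848), Dusp23 (0.772), Depp1 (0.747) and Rpl3l (0.736). Of these 20 genes, Clu is also on the list of platelet granule genes. All r here are descriptions over 10 arrays.

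Other red cell genes showed the day 7 difference only weakly. Over 39 further genes of the globins, heme synthesis, the red cell membrane and cytoplasm and erythroid regulators, 0 differed by 2-fold on any day, and the median on day 7 was 0.20, with 26 of the 39 above 0 and a median over all genes of -0.06. The PSI-F graft of day 7 was nevertheless the highest array for 14 of the 39, against 14.0% of all genes. Of the 14, Fech, Bpgm, Slc25a37 and Uros passed a level of 5, and the others reached 4.63 (Tfr2) at most, many of them close to background. Slc25a37, the iron carrier of the mitochondrion of red cell precursors, had 7.42 in PSI-F and 6.52 in PSI grafts of day 7. Fech, the last enzyme of heme synthesis, had 8.64 in PSI-F and 8.05 in PSI, Bpgm, which makes the regulator of oxygen release in red cells, had 7.73 and 7.10, and Trim10, a gene of late red cell precursors, had 3.04 and 2.04, just under 2-fold. Trim10 and Slc25a37 had the largest positive differences of the 39. The regulators Klf1 (0.72) and Gata1 (0.65) came next, then Bpgm (0.63) and Fech (0.59). Other genes of heme synthesis lay below 0 on day 7, among them Alad (-0.53), Alas1 (-0.30), Ppox (-0.28) and Urod (-0.22).

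Tfrc, the transferrin receptor of dividing cells and red cell precursors, lay on the other side, with 6.70 in PSI-F and 7.67 in PSI grafts of day 7, as did Bcl11a, a repressor of embryonic globin genes, with 3.98 in PSI-F and 4.72 in PSI. The regulators Klf1 and Gata1 were close to background, with 2.28 to 3.15 and 3.08 to 3.82 over the 10 arrays, although both were highest in the PSI-F graft of day 7. Of 8 defining markers of erythroid cells, 5 were measured by a probe set of their own. Rhag and Epb42 did not exceed 0.66 and 2.07, and Ank1, at 6.36 to 7.64 over the arrays, stood at 7.12 in PSI-F and at 7.64 in PSI grafts of day 7. Ank1 was the 1 of these 5 markers with a level of 5 or more.

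Platelet genes other than the 4 listed ones gave a like picture. Of 29 further genes of platelet receptors, granules and cytoplasm, 3 passed 2-fold upward in PSI-F on day 7 and 0 downward, against 0.956% and 0.824% of all genes, with a median of 0.35. The PSI-F graft of day 7 was highest for 10 of the 29, against 14.0% of all genes. All 10 stayed below a level of 5, with Rgs18 (4.56) the highest, and most lay below the median of that array (2.94). Of all genes, 50.9% reached 5 on some array, so the 2 shares cover genes of unlike level. Rgs18, a regulator of G protein signalling of platelets, had 4.56 in PSI-F and 2.72 in PSI, the receptor gene Clec1b 2.68 and 1.13, and Nrgn 2.87 and 1.78, with PSI levels below the array median. On day 3, 4 of the 29 passed upward and 0 downward, against 0.989% and 1.87% of all genes. They were Thbs1 and Selp (both 1.33), Plek (1.12) and Rgs18 (1.07), all of which are also made by cells other than platelets. Defining platelet genes stayed low. Itga2b was 4.34 to 4.87, Tubb1 1.73 to 2.61, Gp5 1.40 to 2.20 and Gp6 1.43 to 2.10 over the 10 arrays, and Gp1ba was not measured by a probe set of its own. Gp1bb was highest in the Diabetic biopsy (6.04), where Ppbp was lowest.

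In limma, 1 of the 39 red cell genes passed between grafts and biopsies (Lmo2, higher in grafts, adjusted p = 0.00942), and 1 of the 29 platelet genes (Plek, higher in grafts, adjusted p = 0.0149), against 2.16% of all probe sets, so both shares are near the background. Both are also genes of other cells, Lmo2 of endothelium and Plek of leukocytes. Of the 39 and the 29 genes, 0 passed between days 7 and 10 and days 1 and 3, and 0 between PSI-F and PSI.

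**Figure D5:**
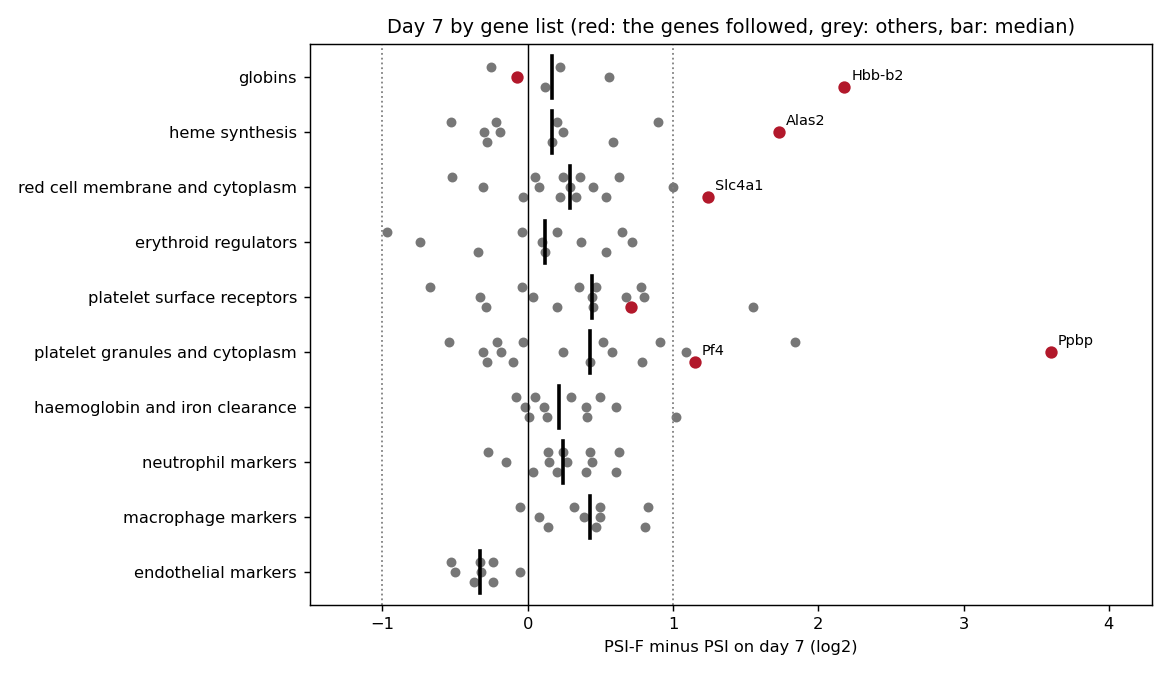
PSI-F minus PSI on day 7 (log2, horizontal axis) for each measured gene of 10 lists, 1 array per condition, with the genes followed here in red, other genes in grey, list medians as bars and dotted lines at 2-fold. Ppbp, Hbb-b2, Alas2, Slc4a1 and Pf4 lie to the right of 1, list medians of red cell and platelet genes lie between 0.12 and 0.44, and all 8 endothelial markers lie below 0.

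Vessel genes did not move with the blood genes on day 7. The median of 8 endothelial markers was 5.32 in PSI-F and 5.66 in PSI grafts of day 7, and Pecam1 had 5.61 in PSI-F and 6.10 in PSI, while Alas2 and Hbb-b2 were higher in PSI-F. Over the other days the endothelial median was 4.65, 5.16 and 4.79 in PSI-F and 4.63, 4.88 and 4.85 in PSI grafts of days 1, 3 and 10. On day 1 the 4 shared globin probe sets were 1.27 to 1.91 lower in PSI-F, and this median was 4.65 in PSI-F and 4.63 in PSI. The part of vessels in these differences was not tested.

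Of 12 measured genes of haemoglobin and iron clearance, 8 were highest on a day 3 array, against 14.7% of all genes. Of the other 4, Slc40a1, which exports iron, was highest in Control (8.27), Blvra, a biliverdin reductase gene, in the PSI graft of day 1 (6.74), and Hpx (2.44) and Spic (1.96), close to background, in the PSI-F graft of day 7. Hmox1, the heme oxygenase that breaks down heme, had 6.50, 9.30, 7.09 and 5.59 in PSI-F grafts and 7.00, 8.47, 6.07 and 5.50 in PSI grafts of days 1, 3, 7 and 10, with 4.59 in Diabetic and 5.51 in Control. Cd163, the macrophage receptor of haptoglobin-bound haemoglobin, had 4.93, 7.19, 4.85 and 5.24 in PSI-F grafts and 5.61, 7.33, 4.35 and 5.51 in PSI grafts, with 5.68 in Diabetic and 4.56 in Control. The peak of Hmox1 and Cd163 fell on the day of that of Pf4 and ahead of that of Alas2 and Hbb-b2. The day 7 difference of Hmox1 was 1.02. A day 3 array was also highest for most of the 10 macrophage markers, among them Csf1r (10.21), Cd68 (8.23) and Mrc1 (8.90). The PSI-F graft of day 7 was highest for 3 of the 10, C1qa, C1qb and C1qc. Cd163 is on both lists, and a peak on day 3 was thus not particular to the clearance genes.

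Neutrophil genes did not follow Itgb2l. S100a8, a calprotectin subunit of neutrophils, had 10.59, 10.30, 8.12 and 6.87 in PSI-F grafts and 10.78, 9.52, 8.08 and 7.86 in PSI grafts of days 1, 3, 7 and 10, with 6.67 in Diabetic and 7.95 in Control, while Itgb2l stayed within 2.40 to 3.38. The granule genes Ngp, Camp and Elane were close to background on all arrays. The parts of neutrophils, macrophages and vessels in the levels of the blood genes were not tested.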

How the data were processed

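The authors deposited log2 levels made with RMA, which corrects background, normalizes by quantiles and summarizes each probe set. R 2.15.0 and affy 1.36.0 are named in the submitters' processing notes. Other steps are not given in the sources used here. Of 45101 probe sets, 64 controls were left out. A gene was represented by its single-symbol probe set with the highest mean level, and 34945 probe sets had 1 symbol, 932 several and 9160 none. Symbols came from the platform annotation, of which 34754 single-symbol entries matched RefSeq by gene ID.

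PSI-F minus PSI of a day is a difference of 2 arrays, counted at 2-fold. Limma 3.58.1 (R 4.3.3) tested 3 comparisons. They were PSI-F minus PSI (day as a block), late (7 and 10) minus early (1 and 3) days, and grafts minus biopsies, with Benjamini-Hochberg adjustment over 45037 probe sets, and was tested on simulated data. Pairs were tested with 100000 permutations in scipy 1.17.1. Tables used pandas 2.3.3 and numpy 2.4.6 in Python 3.11.15, and figures matplotlib 3.10.9. The number of arrays limits the precision.

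The genes, lists and pairs were chosen with earlier results of these data known. Genes named from a list were up to 4 with the largest differences and its defining genes, except the genes at least 2-fold apart on day 3, those that passed in limma, Hmox1, and the heme synthesis and clearance genes that ran the other way, which were named after their values were seen. Alternatives were averaging a gene's probe sets, cyclic loess (3 iterations), a 4-fold threshold, a filter at level 5, an intensity trend, other blocks and leaving out each array.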

Additional observations from a re-analysis of the deposited data

Results flagged for a closer look

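For 2 genes the difference between PSI-F and PSI was at least 2-fold in one direction on day 1 and at least 2-fold in the other on day 7. The difference of Alas2 was -1.83 on day 1 and 1.73 on day 7. That of Ppbp was -1.40 on day 1 and 3.60 on day 7. The PSI-F level of Alas2 on day 1 (3.20) and the PSI level of Ppbp on day 7 (3.16) lay near their array medians, so these sizes are uncertain. With 1 array per condition, the difference between the days was not tested.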

How the results depend on the processing

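The number of genes at least 2-fold apart between PSI-F and PSI was 2, 0, 5 and 1 on days 1, 3, 7 and 10. At a 4-fold threshold it was 0 on day 1, 0 on day 3, 2 on day 7 (Hbb-b2 and Ppbp) and 0 on day 10. With the probe sets listed with several globin genes standing in for Hba-a1 and Hbb-b1, chosen after the data were seen, it was 4 of 9 genes on day 1 and kept its value on the other days. On day 7 neither stand-in passed 2-fold (0.44 to 0.90 over their probe sets). Hbb-b2 was still counted by its own probe set (2.18), where the probe set it shares with other beta-globin genes differed by 0.46. The mean of all probe sets gave 4 on day 7, without Hbb-b2, and cyclic loess changed no count. In limma, 0 of the 8 genes passed in each of the 3 comparisons under the intensity trend, cyclic loess, the filter on dim probe sets and the other blocks, and leaving out each array in turn gave 0 to 0. With only the day 1 and day 3 grafts against the biopsies it was 2, Ppbp (3.21) and Pf4 (2.95), and the cause of this gain was not tested. No difference of at least 2-fold changed its sign under the alternatives run. The filter at level 5 left 3 of the 8 genes in each limma comparison. PSI-F and PSI grafts were paired by day in the main comparison, and without that block 0 genes passed. The labels give no replicate numbers by which other samples could be paired. Hba-a1, Gp9 and Itgb2l lay near or below the array medians, where differences are less reliable.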
